A study of Mus musculus with 12 samples.

Results

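The comparison described here is the training response of old mice minus that of young mice in the quadriceps, a thigh muscle that straightens the knee. For each gene the log2 fold change of exercised over sedentary muscle was estimated at each age, and the difference of these fold changes, the interaction, was tested on the raw counts of all 12 libraries with 1 coefficient per group. A negative interaction means that the response was lower in old than in young mice. Of 15304 genes tested, 9376 had a mean of at least 5 CPM (counts scaled to a fixed total) over the 12 libraries and are the genes described. The CPM are scaled by TMM, which assumes that most genes do not differ between libraries. An adjusted p under 0.05 in edgeR over all tested genes was the threshold for a response that differed between the ages.

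The mice were of the inbred strain C57BL/6, aged 18 weeks (young) or 28 months (old), and the labels name no allele, transgene or drug in any group. One group of each age was kept sedentary, and exercised mice ran on a treadmill for 40 min in each of 3 weekly sessions for 8 weeks, at speeds that went from 8 up to 12 m/min. Each of the 4 groups (young sedentary libraries 1 to 3, young exercised 7, 8 and 10, old sedentary 4 to 6, old exercised 4 to 6) has 3 libraries. The labels do not say whether each library is 1 animal, and p-values then reflect only how far these samples lie apart, which may be technical.

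Endurance training acts on muscle through calcium and energy signals that raise the coactivator encoded by Ppargc1a and, with it, genes of mitochondria and fat oxidation. Ageing muscle loses mass and fast fibres, and its answer to the same training is commonly described as blunted. A weaker response and one that runs the other way give an interaction of the same sign, so the fold change at each age is given beside it.

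Total counts were 23.3 to 27.6 M per library, and the muscle markers Ckm (creatine kinase) and Acta1 (skeletal actin) were at 18410 CPM or more in every library. Several libraries stood apart. Young sedentary library 2 held skin keratin (Krt5 at 143 CPM of the plain total), young sedentary library 1 and old exercised library 6 held fat-cell RNA (Adipoq at 147 and 107 CPM), and old exercised library 6 also held antibody RNA (Igkc at 304 CPM). By Xist and Ddx3y, 5 libraries read as female (young sedentary 1 and 3, young exercised 8 and 10, old exercised 4), and sex is not in the labels. Myh7, the slow myosin, ranged from 1.14 to 664 CPM of the plain total among the young sedentary libraries. No pair of libraries within a group was alike within sampling noise.

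The data showed few single genes whose response passed the test and a broad negative relation between the responses at the 2 ages. In edgeR, 2 of the 9376 genes passed (0.0213%), both with a lower response in old mice: Aff1 and Spock2. Over all 15304 tested genes 8 passed (0.0523%), and 2353 had an unadjusted p under 0.05. Within an age, training passed for 2 genes in young mice (0.0131%) and for 89 in old mice (0.582%), of which 10 had a mean of at least 5 CPM. Of the 9376 genes, 906 (9.66%) had a negative and 540 (5.76%) a positive interaction at an unadjusted p under 0.05. That split changed with the scaling and with the genes used: with plain library totals it was 234 negative and 1401 positive, and with only the 9376 genes scaled, fitted and tested 659 negative and 683 positive. The TMM factors were 1.05 to 1.06 in young sedentary and 0.921 to 0.992 in young exercised libraries, and plain totals moved the median interaction of the 9376 genes from -0.04 to 0.13.

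Sequences before RefSeq transcription starts of the 2 genes that passed are shown because the study concerns ARNT, a transcription factor subunit whose dimers recognise sites with a core such as ACGTG. Both genes matched the RefSeq promoter table (GRCm38.p6), and each sequence is the 250 bases before a transcription start, read along the gene, with ACGTG on either strand (CACGT when read on the other) in capitals.

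Spock2 (chr10:60106007-60106256, plus strand): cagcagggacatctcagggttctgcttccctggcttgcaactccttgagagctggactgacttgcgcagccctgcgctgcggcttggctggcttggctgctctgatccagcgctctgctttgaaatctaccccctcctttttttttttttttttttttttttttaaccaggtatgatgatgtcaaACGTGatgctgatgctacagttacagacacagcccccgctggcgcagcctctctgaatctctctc

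Aff1, the first of its 2 starts in the table (chr5:103753912-103754161, plus strand): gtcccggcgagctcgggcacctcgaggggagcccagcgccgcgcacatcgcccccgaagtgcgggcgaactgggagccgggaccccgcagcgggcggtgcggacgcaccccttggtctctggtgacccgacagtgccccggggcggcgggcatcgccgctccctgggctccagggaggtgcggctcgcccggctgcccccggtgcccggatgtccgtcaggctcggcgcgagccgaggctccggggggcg

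The window of Spock2 held 1 match to ACGTG and that of Aff1 held 0, at either of its 2 starts. Among all 32851 windows of this length in the table, 16.6% held ACGTG on either strand and 6.02% held CACGTG, the E-box that contains ACGTG, which neither gene had. By the gene spans given with the values, the Aff1 windows lie inside the gene, and the Spock2 window overlaps the gene's first bases. A match describes the letters only.

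Aff1 encodes a protein that holds together the super elongation complex, which releases paused RNA polymerase (chromosome 5, 103692374 to 103855322, GRCm38). Its level was 49.9, 56.5 and 53.1 CPM in young sedentary, 101.5, 94.6 and 105 in young exercised, 71.5, 61.6 and 62 in old sedentary, and 63.3, 72.8 and 59.7 in old exercised libraries. The young exercised libraries were all above the other 9, and the old groups overlapped. Aff1 rose 1.89-fold in young mice (log2 0.92 ± 0.0936 SE, adjusted p = 0.00651 in edgeR), while the log2 fold change in old mice was 0.0047 ± 0.0929 (adjusted p = 0.995). The interaction was -0.91 ± 0.132 (SE, adjusted p = 0.0417 in edgeR), that is, a response in young mice with no counterpart in old mice.

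Spock2 encodes testican-2, a secreted proteoglycan of the extracellular matrix (chromosome 10, 60106219 to 60135198). Its level was 6.76, 6.99 and 8.13 CPM in young sedentary, 11.7, 15 and 14.3 in young exercised, 27.2, 23.3 and 21.6 in old sedentary, and 9.01, 15.2 and 14.8 in old exercised libraries. The groups did not overlap at either age and lay in opposite order: exercised above sedentary in young mice, and below it in old mice. Old sedentary muscle stood highest, and the exercised groups of the 2 ages had means of 13.6 ± 1.76 and 13 ± 3.48 CPM (SD, n = 3). The interaction was -1.79 ± 0.26 (adjusted p = 0.0417 in edgeR), made of 0.90 in young mice (adjusted p = 0.157) and -0.88 in old mice (adjusted p = 0.0589), neither of which passed alone.

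Both genes kept their direction in all 23 alternative analyses, with an interaction of -1.01 to -0.75 for Aff1 and -1.92 to -1.43 for Spock2, but each passed the threshold in only 5 of them. Leaving out any 1 library other than young sedentary 2 left 0 genes past the threshold, leaving out young sedentary 2 gave 32, a sex term gave 0, DESeq2 gave 273, and plain totals gave 6, all higher in old mice and without Aff1 or Spock2.

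**Figure D1:**
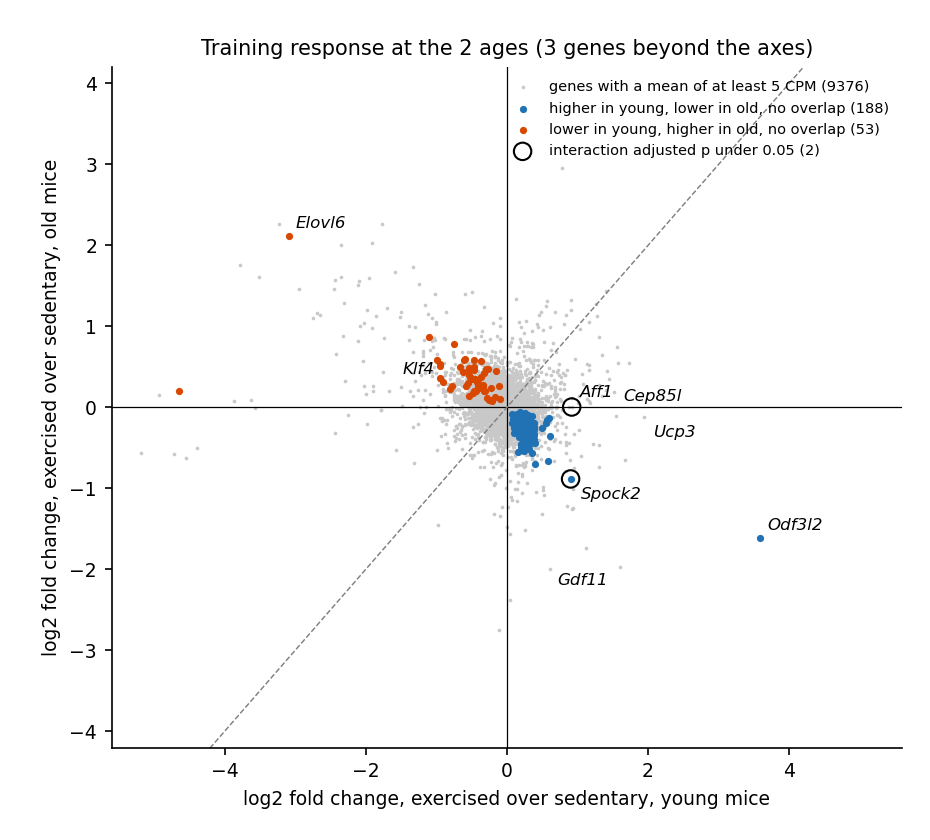
Each point is a gene with a mean of at least 5 CPM, with its log2 fold change of exercised over sedentary muscle in young mice on the x axis and in old mice on the y axis; the dashed line marks equal responses. Blue and orange points are the 188 and 53 genes whose groups did not overlap at either age and lay in opposite order, and circles mark Aff1 and Spock2.

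Just outside the threshold lay Sms, Cep85l and Dkk2, each with an adjusted p of 0.0564 in edgeR, and 33 of the 9376 genes had an adjusted p under 0.1 (21 negative, 12 positive). Their values are a description, since their interaction did not pass. The 20 genes with the smallest p sort by which age moved. In Aff1, Cep85l, Dkk2, Ucp3 and Sorbs3 the log2 fold change was larger in young mice, in Sms and Gdf11 it was larger in old mice, and the other 13 had groups in opposite order without overlap at both ages.

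Cep85l, a centrosomal protein gene, was at 13.2, 9.18 and 12.9 CPM in young sedentary and 42.3, 30.3 and 30.4 in young exercised libraries, against 18, 22.4 and 15.5 in old sedentary and 17.4, 15.5 and 19.2 in old exercised ones. It rose in young mice (log2 1.55, adjusted p = 0.0214 in edgeR) and its log2 fold change in old mice was -0.10 (adjusted p = 0.916). The young exercised libraries were the highest of the 12, and the old groups overlapped. Dkk2, a secreted modulator of Wnt signalling, had the same shape: 4.86, 6.05 and 5.58 CPM in young sedentary, 10.6, 12 and 11 in young exercised, 4.76, 4.56 and 3.67 in old sedentary, and 3.07, 4.08 and 3.59 in old exercised libraries. Its fold change was 2.04 in young and 0.828 in old mice, with an interaction of -1.30.

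Ucp3, the uncoupling protein of muscle mitochondria that marks fat use, was at 64.6, 79.5 and 66.6 CPM in young sedentary and 309.6, 229 and 275 in young exercised libraries. In old mice it was at 86.4, 120.5 and 61.2 CPM in sedentary and 93.3, 56.7 and 97.7 in exercised libraries. All young exercised libraries exceeded the other 9, while the old groups overlapped. The interaction was -2.06 ± 0.362 (adjusted p = 0.075 in edgeR). Ppargc1a, the coactivator of mitochondrial biogenesis, was 2.88-fold higher with training in young and 1.14-fold in old mice, with 138, 74.3 and 89 CPM in young exercised libraries against 28.6 to 42.8 in young sedentary, 37.1 to 43.2 in old sedentary and 36.7 to 53.6 in old exercised ones. Its interaction was -1.33 (adjusted p = 0.126 in edgeR). Trim63, the ubiquitin ligase MuRF1 of muscle protein breakdown, was 2.54-fold higher in young and 1.11-fold in old mice (interaction -1.20, adjusted p = 0.174 in edgeR).

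Sms, which encodes spermine synthase of polyamine metabolism, showed its change in old mice. It was at 137, 156 and 123 CPM in young sedentary, 184, 157 and 155 in young exercised, 197, 168 and 179 in old sedentary, and 109, 121 and 106 in old exercised libraries. The old exercised libraries were below all 9 others, and the young groups overlapped. Sms fell in old mice (log2 -0.70, adjusted p = 0.014 in edgeR) and its log2 fold change in young mice was 0.25 (adjusted p = 0.348), giving an interaction of -0.95.

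Gdf11, a ligand of the TGF-beta family that signals through activin receptors, was at 9.15, 11 and 6.91 CPM in young sedentary, 19.5, 11.6 and 10.1 in young exercised, 68.1, 44.7 and 43.7 in old sedentary, and 12, 17.5 and 9.66 in old exercised libraries. Only the old sedentary libraries exceeded 20 CPM, and the other 3 groups overlapped. Gdf11 fell to 0.251 of its sedentary level in old mice (log2 -1.997, adjusted p = 0.0234 in edgeR). In young mice its fold change was 1.53 (adjusted p = 0.433), and the interaction was -2.61 ± 0.436 (adjusted p = 0.0683 in edgeR). Of the 22 TGF-beta family genes at 5 CPM or more, 0 passed, 4 had a negative and 1 a positive interaction at an unadjusted p under 0.05, and the median was -0.13. The negative ones were Gdf11, its extracellular inhibitor gene Wfikkn2 (-0.72) and the activin receptor genes Acvr1b (-0.86) and Acvr2a (-0.55). Wfikkn2 lay in opposite order at the 2 ages: 10.4 to 12.9 CPM in young sedentary, 13.4 to 17.7 in young exercised, 17.4 to 20.5 in old sedentary and 14.05 to 15.6 in old exercised libraries.

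Odf3l2, a gene named for its likeness to an outer dense fibre protein of sperm, had the most negative interaction among genes with opposite order. It was at 2.19, 7.61 and 1.7 CPM in young sedentary, 39.2, 52.5 and 46.5 in young exercised, 14.5, 16.5 and 29.6 in old sedentary, and 3.4, 7.7 and 8.65 in old exercised libraries. Its level was 12-fold higher with training in young mice and 0.326 of the sedentary level in old mice, with no overlap at either age. The interaction was -5.20 ± 0.797 (adjusted p = 0.0672 in edgeR), and Odf3l2 was the only gene of the 9376 past the threshold in limma voom.

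**Figure D2:**
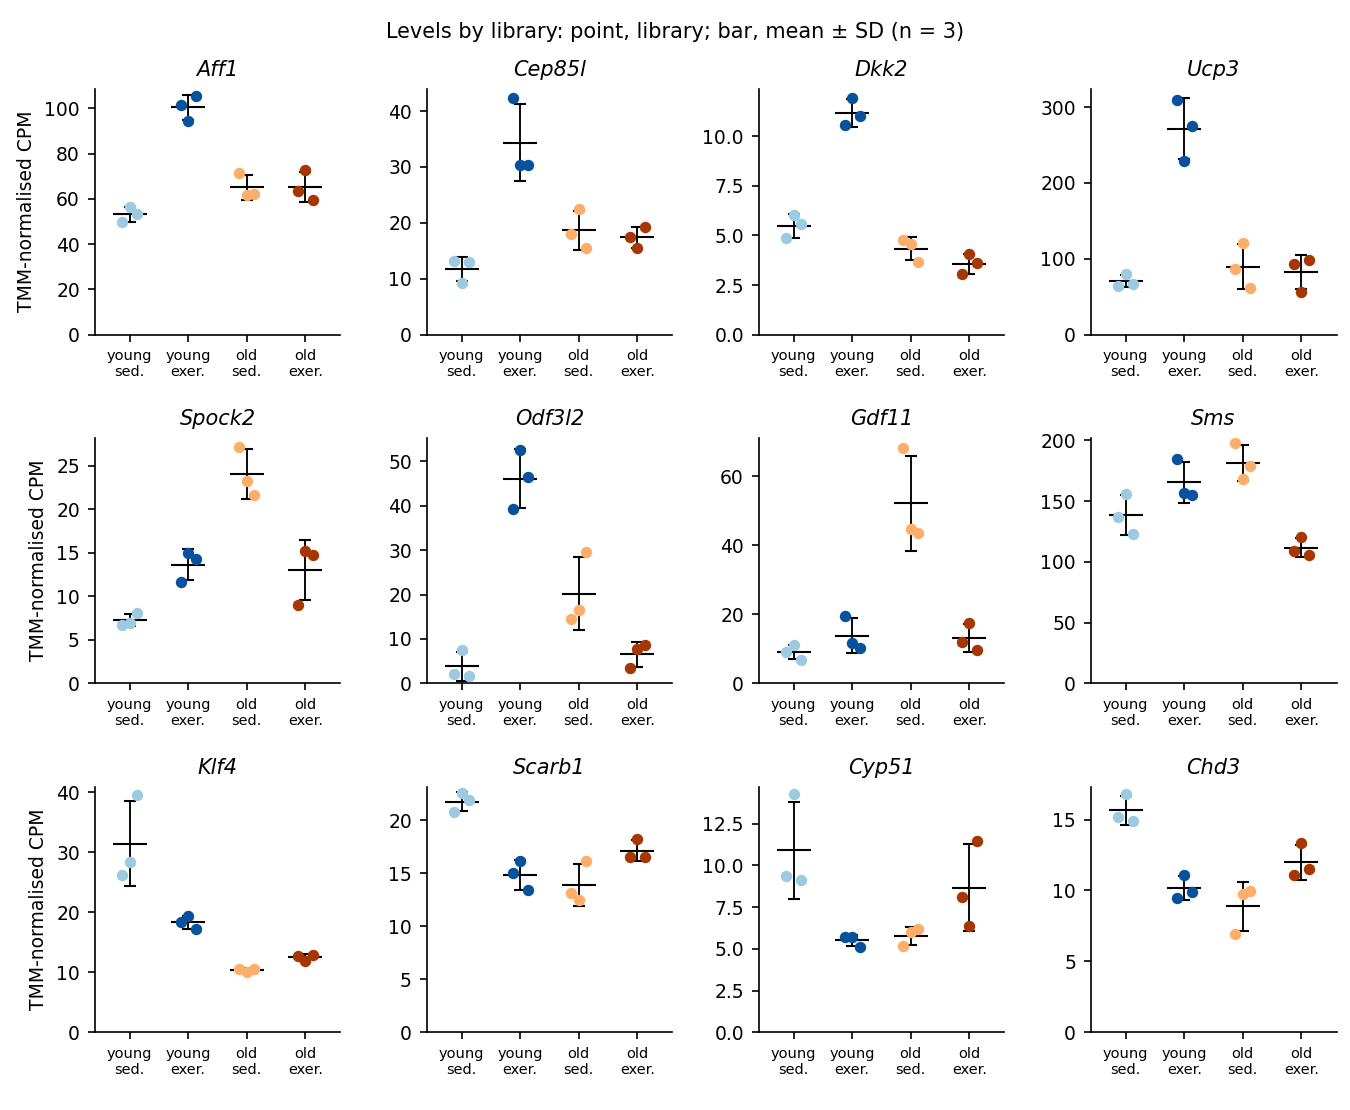
TMM-normalised CPM of 12 genes in each library (points), with the mean ± SD of the 3 libraries of a group, on linear axes from 0. In the top row the young exercised libraries stand above the rest, in the middle row Spock2, Odf3l2 and Gdf11 are higher in old sedentary than in old exercised libraries, and in the bottom row young sedentary libraries exceed young exercised ones while old exercised libraries exceed old sedentary ones.

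Genes with a positive interaction near the threshold were lower after training in young and higher in old mice. Klf4, a zinc-finger factor of endothelium and stem cells, was at 26.3, 28.5 and 39.5 CPM in young sedentary, 18.4, 19.4 and 17.3 in young exercised, 10.6, 10.1 and 10.6 in old sedentary, and 12.7, 11.8 and 12.9 in old exercised libraries. The groups lay in opposite order without overlap, and the interaction was 1.03 ± 0.187 (adjusted p = 0.0683 in edgeR). Scarb1, the receptor for high-density lipoprotein, showed the same order, from 20.8 to 22.6 CPM in young sedentary to 13.4 to 16.2 in young exercised, and from 12.5 to 16.1 in old sedentary to 16.5 to 18.3 in old exercised libraries (interaction 0.85, adjusted p = 0.0683 in edgeR). The other positive genes among the first 20 were Klhl5 (0.96), Cmtm4 (0.75), the non-muscle actinin gene Actn4 (0.67), the succinic semialdehyde dehydrogenase gene Aldh5a1 (0.90) and the chromatin remodeller gene Chd3 (1.06). All had opposite order without overlap. With plain totals Actn4, Klf4, Scarb1, Klhl5, Cmtm4 and Aldh5a1 were the 6 genes past the threshold.

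Across the 9376 genes the responses of the 2 ages ran against each other. Pearson's r between young and old log2 fold changes was -0.25 and Spearman's rho was -0.26, across genes, which are not independent replicates and share their library scaling. The signs were opposite for 5680 genes (60.6%). Taking each age by itself, exercised and sedentary libraries did not overlap for 1194 genes higher and 651 lower with training in young mice. In old mice these counts were 472 higher and 877 lower, so the larger direction differed between the ages. In 287 genes the sedentary and exercised libraries did not overlap at either age, and of these 241 lay in opposite and 46 in the same order. Of the 241, 188 were higher in young and lower in old mice with training (2.01% of the 9376) and 53 were lower in young and higher in old mice (0.565%). Those in the same order were 26 genes higher (0.277%) and 20 lower (0.213%) at both ages.

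The 2 sets of opposite genes differed in the size of their responses. Among the 188, the median log2 fold change was 0.20 in young and -0.20 in old mice, and among the 53 it was -0.46 and 0.33. With plain totals the counts were 25 and 176 in place of 188 and 53, and 24 of the 188 but 50 of the 53 kept their pattern. The balance between the 2 directions therefore rested on the scaling. Leaving out 1 library gave 275 to 484 opposite genes, since fewer libraries have to separate.

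A gene chosen as higher in young and lower in old mice after training must have a lower difference of old minus young muscle after training, and the reverse holds for the other set. As a description, the median log2 of old over young muscle, on log2(mean CPM + 1), was 0.18 in sedentary and -0.22 in exercised muscle for the 188 genes, and -0.61 and 0.17 for the 53. Of the 188 genes, 165 had a higher mean in old than young sedentary muscle but 13 had a higher mean in old than young exercised muscle, against 53.8% and 48.2% of the 9376 genes. Of the 53 genes, 48 had a lower mean in old than young sedentary muscle, and 14 had a lower mean in old than young exercised muscle.

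By size, the most negative of the 188 were Odf3l2, Spock2, Cntfr, Atp8a1, Sorbs2, Phc1, Timp2 and Plcl1. Cntfr encodes a receptor of ciliary neurotrophic factor and was at 15.9, 30.4 and 19.4 CPM in young sedentary, 35, 31.7 and 31.5 in young exercised, 29.5, 28.5 and 26.9 in old sedentary, and 16.8, 21.4 and 15.7 in old exercised libraries. The old groups were far apart, while young sedentary library 2 came close to the young exercised libraries, and the interaction was -1.24. Atp8a1, a phospholipid flippase gene (-1.08), Sorbs2, an adaptor of the Z-disc (-0.96), Phc1, a Polycomb gene (-0.92), Timp2, an inhibitor of matrix metalloproteinases (-0.84), and Plcl1 (-0.83) had adjusted p from 0.101 to 0.174 in edgeR.

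The most positive of the 53 were Elovl6, Sfn, Ccnd2, Cyp51, Mgll, Tubb2a, Cox6a1 and Dll1. Elovl6, a fatty acid elongase gene, was at 33.5, 13.2 and 5.84 CPM in young sedentary, 1.55, 1.87 and 2.75 in young exercised, 0.707, 1.24 and 1.63 in old sedentary, and 4.14, 1.71 and 9.54 in old exercised libraries. Within their groups the highest values were in young sedentary library 1 and old exercised library 6, the libraries with fat-cell RNA, and the interaction of 5.20 (adjusted p = 0.101 in edgeR) was 3.50 without them. Sfn, a keratinocyte gene, was at 68.6 CPM in young sedentary library 2, the library with skin keratin, and at 0.874 to 2.13 CPM in the other 11. Ccnd2, cyclin D2, was at 22.5, 38.9 and 16.85 CPM in young sedentary, 11.4, 14.1 and 10.9 in young exercised, 5.88, 6.49 and 6.83 in old sedentary and 9.67, 8.75 and 16.8 in old exercised libraries (interaction 1.98, adjusted p = 0.105 in edgeR). The old exercised range of Ccnd2 was widened by library 6. Ccnd2, Cyp51 (14.3 CPM), Tubb2a (18 CPM) and Dll1 (8.4 CPM) had their highest value in young sedentary library 2. Mgll and Cox6a1 were highest within their groups in the libraries with fat-cell RNA. Mgll was at 95.8 CPM in young sedentary 1 and 78.7 in old exercised 6, and Cox6a1 at 38.2 and 24.4.

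**Figure D3:**
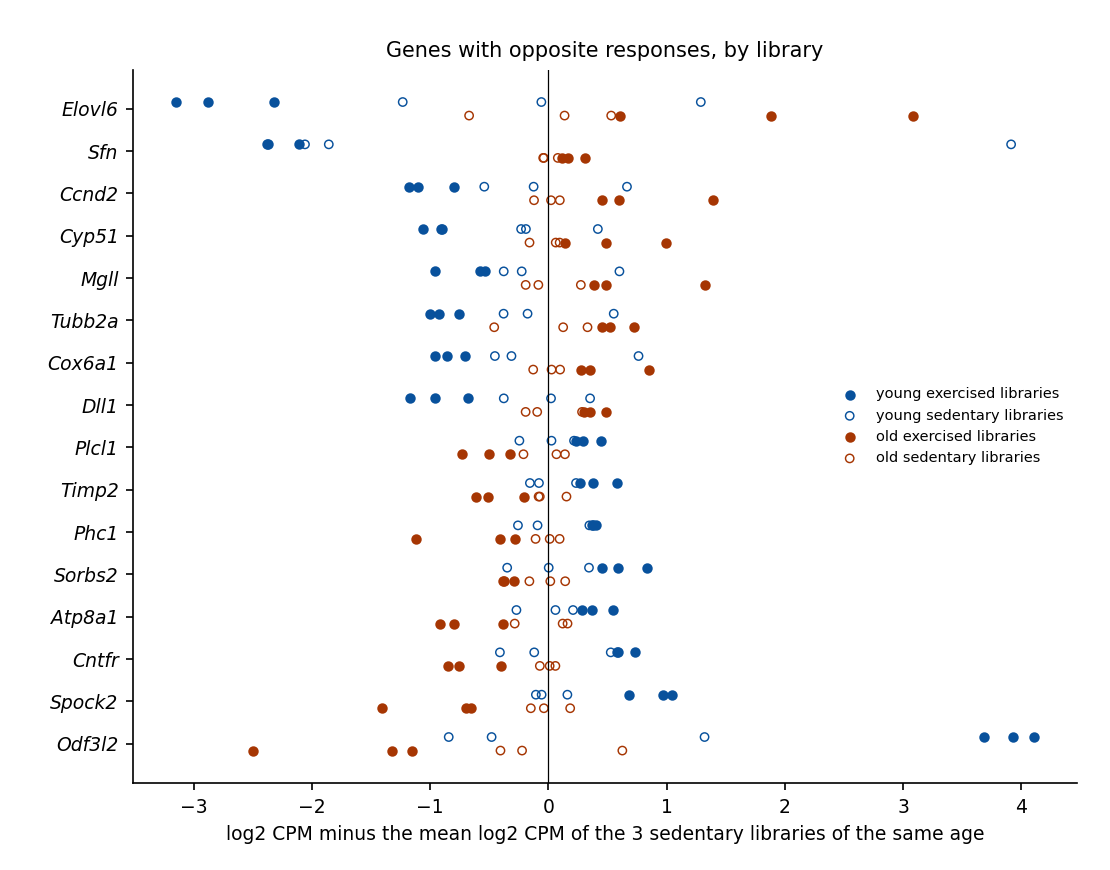
The 16 genes with the largest opposite responses, as log2 CPM of each library minus the mean log2 CPM of the 3 sedentary libraries of the same age (filled, exercised; open, sedentary; blue, young; brown, old). Filled blue and filled brown points lie on opposite sides of 0 in each gene. The open blue point far to the right in Sfn is young sedentary library 2.

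Gene lists were read by counts and medians beside those of all 9376 genes, whose median interaction was -0.04 with 9.66% negative and 5.76% positive at an unadjusted p under 0.05. By sign alone, 4105 of the 9376 were positive and 5271 negative. No member of the pathway lists at 5 CPM or more passed the adjusted threshold. Genes of calcium handling in the sarcoplasmic reticulum had a median of -0.39 (0.18 in young, -0.15 in old), with 12 of 25 negative and 1 positive at an unadjusted p under 0.05. Jph2, which tethers that reticulum to the surface membrane, was at 1113, 1212 and 1027 CPM in young sedentary, 1448, 1408 and 1247 in young exercised, 1276, 1026 and 1104 in old sedentary, and 846, 843 and 723 in old exercised libraries. Its groups lay in opposite order without overlap (interaction -0.79, adjusted p = 0.0849 in edgeR). Stac3 (-0.54) and the calcium channel gene Cacna1s (-0.58), both of excitation-contraction coupling, and Pvalb (-0.78), the calcium buffer parvalbumin, also had opposite order. Casq1, which stores calcium (-0.63), and Ryr1, which releases it (-0.49), were negative without that order. Sln, an inhibitor of the calcium pump, was the 1 positive member at an unadjusted p under 0.05 (3.85), and is also on the slow-fibre list. Its young levels were low, at 1.74, 0.43 and 3.14 CPM in sedentary and 0.125, 0.437 and 0.211 in exercised libraries.

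Genes of fast fibres had a median of -0.39 (0.31 in young, -0.11 in old), with 9 of 18 negative and 0 positive at an unadjusted p under 0.05. They share Pvalb, Casq1 and Atp2a1 with the calcium list. Mybpc2, the fast myosin-binding protein, was at 5461, 5867 and 4896 CPM in young sedentary, 8024, 6878 and 7791 in young exercised, 8139, 7306 and 7105 in old sedentary, and 7425, 5675 and 6401 in old exercised libraries. The young groups did not overlap and the old groups did (interaction -0.69, adjusted p = 0.112 in edgeR). Ampd1, AMP deaminase of fast fibres, had opposite order (-0.78), and Actn3 (-0.57) and the fast myosin gene Myh4 (-0.58) were negative as well. The fast myosin genes Myh1 (1.11) and Myh2 (2.29) went the other way, the 2 of 18 members with a positive sign. For glycolysis and glycogen the median was -0.22, with 6 of 25 negative and 3 positive at an unadjusted p under 0.05. The negative ones included Phka1 (-0.65) and Pgm1 (-0.71), and the positive ones the glycogen branching enzyme gene Gbe1 (0.87). With plain totals these 3 medians were -0.23, -0.22 and -0.06, beside 0.13 over all 9376 genes.

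Genes of slow fibres had the largest positive median among the pathway lists, 2.84 (-2.43 in young, 0.08 in old), with all 16 positive in sign but 2 at an unadjusted p under 0.05. Their summed level was 1722 to 6793 CPM in young sedentary, 1638 to 3023 in young exercised, 2152 to 6537 in old sedentary and 4347 to 7463 in old exercised libraries. The young sedentary libraries alone spanned most of that range. In the 7 libraries that read as male the median was -0.18, but there the young response is 1 library (exercised 7) against 1 (sedentary 2, with skin keratin and Myh7 at 1.14 CPM). This also holds for the other medians given for these 7 libraries. The part of sex and fibre makeup in the slow-fibre values was not tested. Nuclear genes of oxidative phosphorylation had a median of 0.17 with 46 of 49 positive in sign, 1 of them at an unadjusted p under 0.05, and the median was -0.10 in the libraries that read as male.

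**Figure D4:**
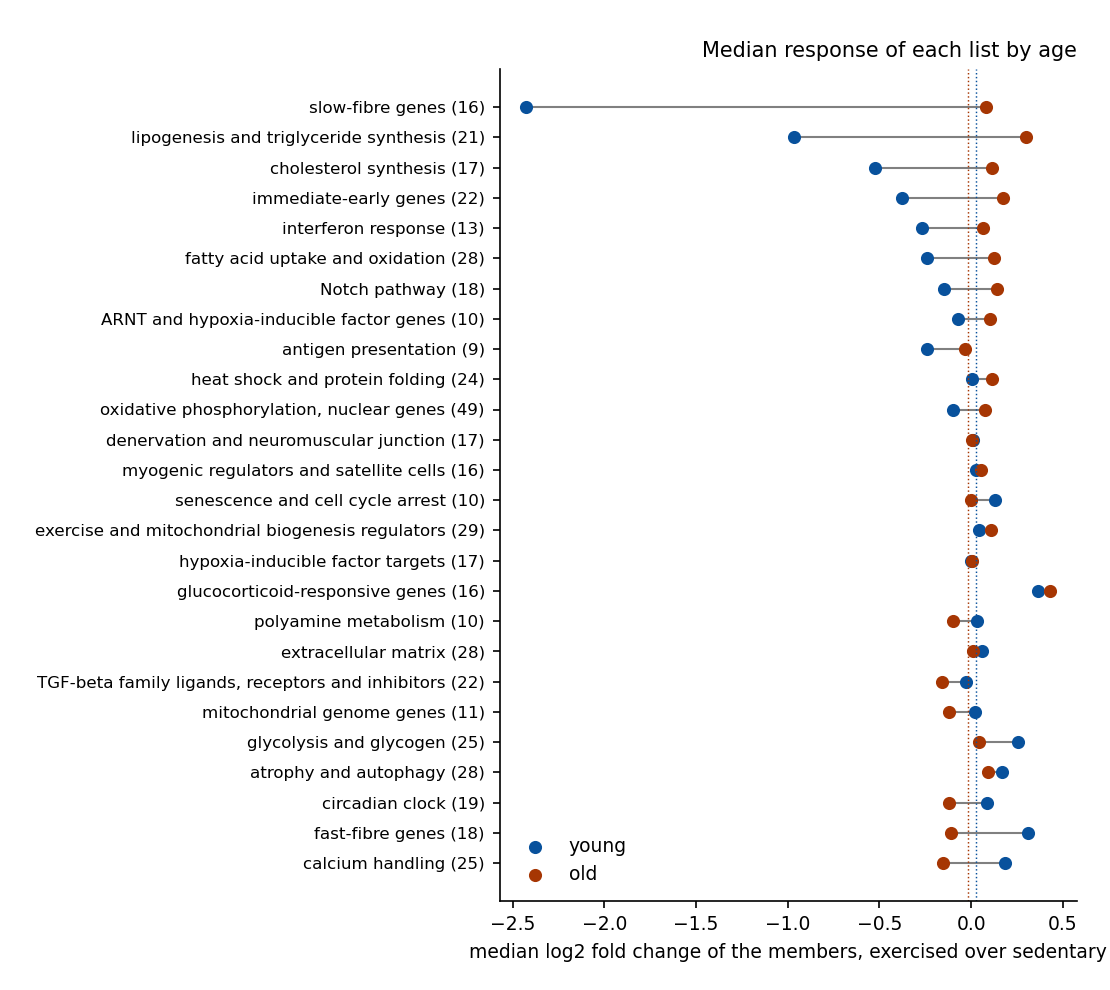
Median log2 fold change of exercised over sedentary muscle for the members of each list at a mean of at least 5 CPM (number in brackets), in young (blue) and old (brown) mice; dotted lines are the medians of all 9376 genes. The lists at the bottom, calcium handling and fast fibre, are above 0 in young and below 0 in old mice, and slow fibre, lipogenesis and cholesterol synthesis are the reverse.

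Lipid synthesis stood at the positive end. Genes of lipogenesis and triglyceride synthesis had a median of 1.25 (-0.97 in young, 0.30 in old), with 12 of 21 positive and 0 negative at an unadjusted p under 0.05. Acss2, which makes acetyl-CoA from acetate, was at 57.7, 34.9 and 52.4 CPM in young sedentary, 25.9, 24.2 and 24 in young exercised, 31.8, 41.7 and 49 in old sedentary, and 39.7, 54.6 and 54.4 in old exercised libraries. The young groups were apart and the old groups overlapped (interaction 1.25, adjusted p = 0.105 in edgeR). The interaction was 5.50 for the fatty acid synthase gene Fasn, 3.07 for Acaca and 2.92 for Acly, which feed it, and near 0 for the regulator gene Srebf1 (0.02).

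Markers of fat cells moved with this group. Summed CPM of the 15 listed adipocyte genes was 1323 to 6155 in young sedentary, 1261 to 3642 in young exercised, 1505 to 2122 in old sedentary and 1917 to 5089 in old exercised libraries, highest in young sedentary 1 and old exercised 6. Of the 10 at 5 CPM or more, 9 were positive in sign and the median was 3.61. Ucp1 of brown fat was at 0 in 9 libraries and at 4.55 CPM in young sedentary 1. Without these 2 libraries the adipocyte median was -0.13, while the lipogenesis median was 0.71 with 10 members positive and 1 negative at an unadjusted p under 0.05. Fasn was then 2.34, Acaca 1.26, Acly 1.45 and Pck1 -0.65 (5.13 with all libraries). In bulk muscle, more fat cells and more of this RNA per cell cannot be told apart. Markers of fibro-adipogenic cells and tendon had a negative median, -0.47, with 15 of 16 negative in sign. For macrophage markers the median was -0.40, with 9 of 9 negative in sign. At an unadjusted p under 0.05, 4 and 2 members of these lists were negative and 0 positive. The part of these cells in the Spock2, Dkk2 and Timp2 values was not tested.

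Cholesterol synthesis moved less with those 2 libraries. Its 17 genes had a median of 0.70 (-0.52 in young, 0.12 in old), with 10 positive and 0 negative at an unadjusted p under 0.05, and without the 2 libraries 0.44 with 7 positive. Srebf2, the regulator of the pathway, was at 21.3, 27.5 and 22.1 CPM in young sedentary, 14.4, 14.3 and 14.4 in young exercised, 16, 13.9 and 17.4 in old sedentary, and 15.7, 18.6 and 16.8 in old exercised libraries. Young sedentary muscle was above the other groups, and the old groups overlapped (interaction 0.83, adjusted p = 0.087 in edgeR). Cyp51, a demethylase of the pathway, had opposite order without overlap, from 9.09 to 14.3 CPM down to 5.12 to 5.73 in young mice and from 5.17 to 6.17 up to 6.38 to 11.5 in old mice (1.56, adjusted p = 0.0883 in edgeR).

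**Figure D5:**
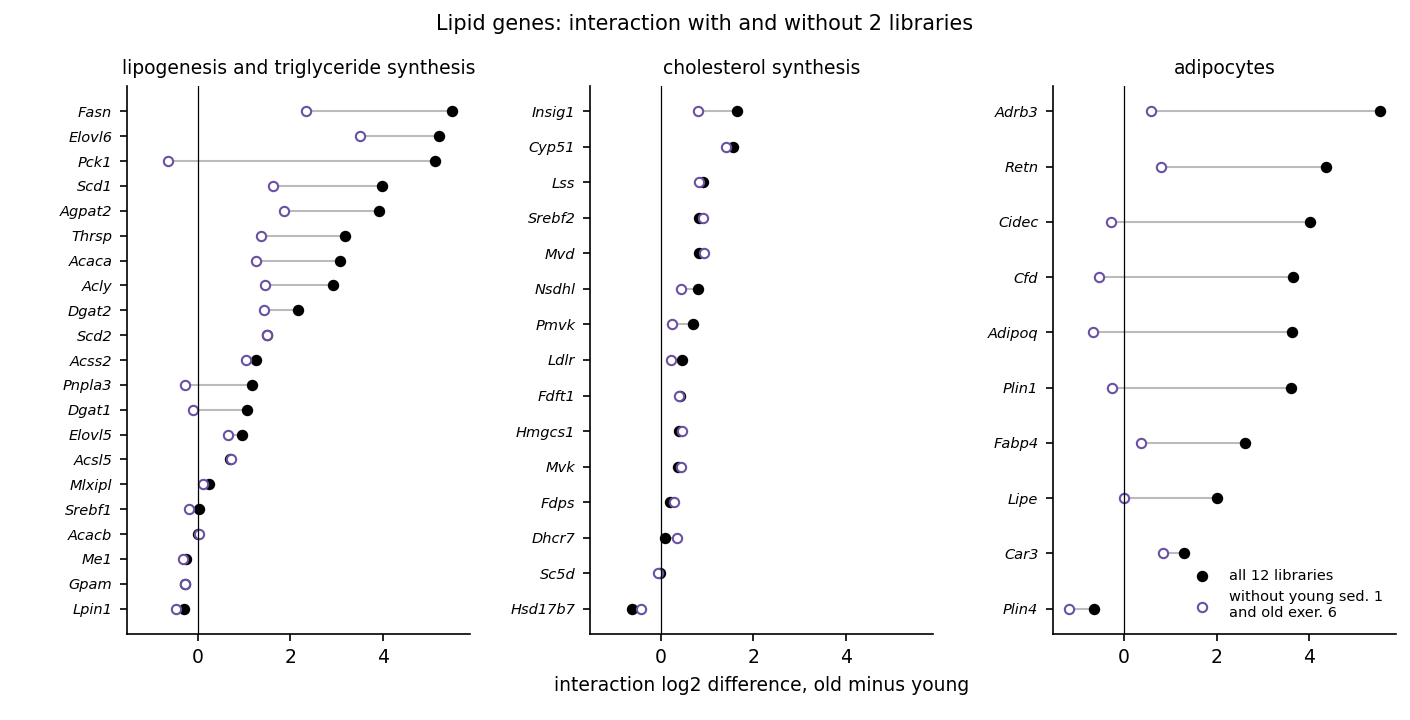
Interaction log2 difference (old minus young) of the members shown, at a mean of at least 5 CPM in 3 lists, with all 12 libraries (filled) and without young sedentary library 1 and old exercised library 6 (open). The adipocyte genes move towards 0 or below without these libraries, most lipogenesis genes become smaller, and most cholesterol genes stay close to their value.

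Signalling and clock genes gave smaller shifts. In the Notch pathway, which keeps satellite cells quiescent, 5 of 18 members were positive and 0 negative at an unadjusted p under 0.05, with a median of 0.25. Markers of endothelium, which also uses this pathway, moved the same way. Of 19 at 5 CPM or more, 18 were positive in sign, with a median of 0.47, and Emcn was at 1.12. At an unadjusted p under 0.05, 5 were positive and 1 negative. The 5 include Fabp4 (2.62), which is also on the adipocyte list. Fabp4 averaged 404 ± 372 CPM (SD) in sedentary and 142 ± 21.1 in exercised young muscle. In old muscle these means were 158 ± 73.6 and 342 ± 330 CPM. Fabp4 is part of the sum given next, which therefore does not stand for endothelium alone. That sum was highest in young sedentary library 1 and old exercised library 6, which held fat-cell RNA. The summed level of the 20 listed was 1012 to 1818 CPM of the plain total in young sedentary, 857 to 922 in young exercised, 649.9 to 995 in old sedentary and 899 to 1420 in old exercised libraries, and its part in the Notch and Klf4 values was not tested. The ligand gene Dll1 was at 6.68, 8.4 and 5.06 CPM in young sedentary, 2.93, 3.38 and 4.1 in young exercised, 6.99, 5.02 and 5.38 in old sedentary, and 7.33, 8.05 and 7.07 in old exercised libraries, in opposite order without overlap (1.32, adjusted p = 0.101 in edgeR). The receptor gene Notch1 had an interaction of 1.04 and Notch3 of 0.68. Notch1 was at 27.7 CPM in young sedentary library 2, the library with skin keratin. It was at 14.9 and 14 CPM in young sedentary libraries 1 and 3. The part of skin RNA in this value was not tested. Of 19 circadian clock genes, 4 were negative at an unadjusted p under 0.05, among them Tef (-0.63), Rora (-0.53) and Cry2 (-0.49). The median of the 19 was -0.35. That median ran from -0.50 to -0.04 as single libraries were left out. Immediate-early genes had a median of 0.52, with 4 of 22 positive and 1 negative at an unadjusted p under 0.05. The positive ones included Klf4 (1.03) and Jund (0.84), both in opposite order. In the libraries that read as male the median of the immediate-early genes was -0.37. Genes of atrophy and autophagy had 5 of 28 negative and 0 positive at an unadjusted p under 0.05, with a median of -0.24. By sign alone, 18 were negative and 10 positive. The regulators of exercise and mitochondrial biogenesis had 5 of 29 negative and 3 positive at an unadjusted p under 0.05, and a median of 0.05.

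Because the series concerns ARNT, its genes are given as values. Arnt was at 55.6, 49.8 and 52.4 CPM in young sedentary, 54.1, 50.3 and 63.4 in young exercised, 62.1, 60.3 and 54 in old sedentary, and 66.4, 61.9 and 56.1 in old exercised libraries. All groups overlapped their neighbours, and the interaction was -0.02 ± 0.141 (adjusted p = 0.953 in edgeR), with no stable sign across alternatives. Of 10 ARNT and hypoxia-inducible factor genes at 5 CPM or more, 0 passed and 2 were negative and 1 positive at an unadjusted p under 0.05. Hif1an, an inhibitor of these factors that hydroxylates an asparagine, was at 287, 296 and 283 CPM in young sedentary, 345, 339.5 and 337 in young exercised, 373, 317 and 317 in old sedentary, and 299.5, 297 and 248 in old exercised libraries. Its groups lay in opposite order without overlap (-0.49, adjusted p = 0.133 in edgeR). The hypoxia-inducible factor targets had a median of -0.02.

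The other 6 genes that passed had means under 5 CPM and fall outside the genes described. Ddn, Enc1, Jph3, Kif5a, Tubb4a and Adcy1, known from neurons, had interactions of 2.22 to 6.59 (adjusted p 0.0417 to 0.0462 in edgeR), and each rose in old mice. Ddn, for one, was at 4.06, 5.09 and 4.56 CPM in old exercised libraries and at 0.502 to 0.998 in the other 9. Of 24 listed markers of central neurons and glia, 20 were tested. At an unadjusted p under 0.05 in edgeR, 16 were positive and 1 negative (Camk2a, -0.70). Among all 15304 tested genes, 2353 had such a p in either direction. Without Camk2a and Aqp4, which were above 9 CPM in all libraries, the listed markers summed to 34.2 to 61.2 CPM in old exercised libraries. In the other libraries they summed to 7.89 to 31.4 CPM. The part of this RNA in the 6 genes was not tested.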

How the data were processed

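RNA of snap-frozen quadriceps was extracted with Trizol, and libraries came ready-made, per the labels' protocols. The authors deposited raw counts per gene, 1 table per library. The submitters' processing notes list bcl2fastq 2.20.0.422, Trimmomatic 0.36, STAR 2.5.2b, featureCounts of Subread 1.5.2, the build GRCm38 and DESeq2. For the annotation release, strand setting and multi-mapping: not given in the sources used here.

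Each table held 49315 genes, 48970 with a symbol. Genes passing filterByExpr (minimum count 10, minimum total 15) were tested in edgeR 4.0.16 (R 4.3.3) with TMM scaling and robust quasi-likelihood, and p-values were adjusted by Benjamini-Hochberg over 15304 genes. The residual degrees of freedom were 8 and the common biological coefficient of variation 0.207. The standard error is the log2 value over the square root of F. The method was tested on simulated data, with counts drawn gene by gene. They held no fat, skin, sex or fibre differences shared across genes within a library, so the effect of such differences was not covered. The genes and lists were chosen with earlier results of these data known. Named were genes past the threshold at 5 CPM or more and the next by p up to 20, the 8 largest opposite responses in each direction, 3 members a list by p, and 7 genes known from earlier results. Other list members named were chosen after their values were seen. Alternatives used limma 3.58.1 and DESeq2 1.42.0. Plain totals, libraries that read as male, and omission of young sedentary 1 with old exercised 6 were chosen after seeing the data. A few list members are counted in their list but not reported here by name.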

Additional observations from a re-analysis of the deposited data

Results flagged for a closer look

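For 8 genes the training response differed between the ages by the test of the interaction itself in edgeR, with an adjusted p under 0.05. The interaction was -0.91 for Aff1 and -1.79 for Spock2. Among genes with a mean under 5 CPM it was 2.84 for Ddn, 2.505 for Enc1, 6.59 for Jph3, 2.22 for Kif5a, 2.66 for Tubb4a and 2.37 for Adcy1. Exercised libraries of old mice were the highest of the 12 in Ddn, Kif5a, Jph3 and Adcy1, in all 3 libraries.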

How the results depend on the processing

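The count of genes past the threshold was unsteady. At a mean of at least 5 CPM (2 genes) it was 12 without a filter on low counts, 0 when only those genes were scaled, fitted and tested, 0 with a sex term, 1 in limma voom and 273 in DESeq2. Over all tested genes (8) the same alternatives gave 27, 0, 0, 3 and 438. Chosen after seeing the data, plain totals gave 6 and 19, the 7 libraries that read as male 27 and 94 (with 1 library in each young group, assumed to vary like the others), and omission of young sedentary 1 with old exercised 6 gave 0 and 0. Leaving out 1 library gave 0 to 32 and 0 to 57, with the highest counts without young sedentary 2 and 0 in the other 11 cases. The opposite responses (241) were 275 to 484 with 1 library left out and 496 without young sedentary 1 and old exercised 6.

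With a replicate block for the numbers 4, 5 and 6 of the old mice, 0 genes passed at either level, and 1349 genes of at least 5 CPM had an unadjusted p under 0.05. Same-numbered old libraries had correlations of deviations of -0.16, 0.00042 and 0.11, and not every library correlated best with its own number. So few pairs cannot show whether same-numbered libraries share more than the number.

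The interaction of Arnt, -0.02, changed sign to 0.025 when only genes of at least 5 CPM were scaled, fitted and tested, 0.14 with plain totals, and -0.0903 to 0.0795 with 1 library left out (above 0 without young sedentary 2, young exercised 10, old sedentary 4 or old exercised 6). Of the other values for named genes, 1359 kept their direction and side of the threshold, 129 lost and 87 gained a call. A call could be lost only by the 8 genes called in the main analysis. Most of the 1359 are therefore genes without a call in either analysis, and their number does not measure how stable the calls were. Low counts limit the genes under 5 CPM.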
